A study of Mus musculus with 8 samples.

Results

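The cluster of miR-322 and miR-503 is a run of microRNA (miRNA) genes on the mouse X chromosome. Its 6 members miR-322, miR-503, miR-351, miR-542, miR-450a and miR-450b were followed in NIH-3T3, an immortalised line of mouse embryo fibroblasts, as the cells left and re-entered the cell cycle. Members are the miRNAs of the annotated cluster, with no threshold on a measured value, and the cluster itself was taken up with earlier results of these data known. A read was counted for an arm when its insert, after removal of the 3′ adapter, was 16 to 30 nt long and its first 20 bases were those of the arm. In this way 13 arms of 7 hairpins were counted (miR-450a has 2 hairpins), of 381 miRNA arms counted in all. Of these, 11 of the 13 and 307 of the 381 passed a filter of at least 10 CPM (reads scaled to a common total of miRNA reads per library) in at least 3 libraries. miR-450a-1-3p (29 reads) and miR-450a-2-3p (4 reads) did not pass.

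There were 8 small-RNA libraries, each from 1 condition, with no replicates. In the serum experiment, cells maintained in 10% serum were deprived of it for 48 h, returned to medium with 20% serum and collected 0, 12, 16, 20 or 24 h later, and these libraries are labelled G0, G1, S, G2/M and again G1. The contact experiment began with cells seeded at 12% confluency, sampled while asynchronous (day 0) and, labelled G0, on days 3 and 5. All libraries came from the same cell line, so nothing here separates the line from fibroblasts in general. For tests, the 3 libraries labelled G0 (serum 0 h, contact day 3 and contact day 5) were set against the other 5, and the p-values then measure the spread between libraries of unlike conditions.

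The serum and contact libraries stand apart. The 5 serum libraries held 6121247 to 8512472 reads. Of these, 59.6% to 91.5% were recurrent sequences of 18 and 30 nt matching no miRNA hairpin, or shared 12 bases with them. In the contact libraries, with 707202 to 801593 reads, the share was at most 0.0351%. These sequences were taken to be marker oligonucleotides, an identity inferred here. The miRNA reads numbered 132431 to 858858 per library. Experiment, marker content and scaling factor (1.12 to 1.502 in the serum libraries, 0.579 to 0.814 in the contact libraries) move together and cannot be told apart, so the model carried a term for experiment. The markers of fibroblast or mesenchymal cells, of which 3 of the 5 listed had a counted arm, made up 5.55% to 31.1% of miRNA reads in every library. Those of muscle, neural and pluripotent or germ-line cells reached at most 0.0596%, 0.134% and 0.103%, and the liver marker had no counted arm. Epithelial markers made up 0.301% at serum 0 h, at most 0.00105% in 3 other libraries and 0 reads in 4. Serum 0 h stood apart in other ways. Inserts under 16 nt made up 28.1% of its reads, against 0.568% to 1.84% in the other 7 libraries, and blood markers 0.0470% of its miRNA reads, against at most 0.000939%.

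miRNAs are cut from hairpins in a longer primary transcript, first by Drosha in the nucleus and then by Dicer, and either arm of the hairpin (5p or 3p) can be loaded into an Argonaute protein. The loaded arm pairs with target mRNAs mainly through its seed, bases 2 to 8, and usually lowers their output. Hairpins of a cluster can be cut from 1 transcript and yet give unequal amounts of mature miRNA, since cutting, loading and decay act on each hairpin or arm. miR-322 is the mouse counterpart of human miR-424. It belongs with miR-503 to the extended miR-15/16 family, whose known targets include D-type cyclins and CDC25A, drivers of the G1 to S transition.

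The mature sequences are shown because the seed sets each arm's family and its 3′ end is followed below. They are from RefSeq (build GRCm38.p6, all on the minus strand), with the seed in capitals, for the more abundant arm of each member and for the 2 less abundant arms whose reads began elsewhere.
miR-322-5p (chrX:53054306-53054327): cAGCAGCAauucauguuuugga
miR-503-5p (chrX:53054027-53054049): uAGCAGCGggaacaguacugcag
miR-351-5p (chrX:53053315-53053338): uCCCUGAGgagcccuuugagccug
miR-542-3p (chrX:53049415-53049436): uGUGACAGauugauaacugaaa
miR-450a-5p (chrX:53048206-53048227 and chrX:53048339-53048360): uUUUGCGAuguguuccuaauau
miR-450b-3p (chrX:53048008-53048029): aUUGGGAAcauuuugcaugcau
miR-322-3p (chrX:53054269-53054289): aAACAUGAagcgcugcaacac
miR-503-3p (chrX:53053987-53054008): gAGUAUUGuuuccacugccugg

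The seed of miR-322-5p, AGCAGCA, is also that of miR-15a-5p, miR-15b-5p, miR-16-5p, miR-195a-5p and miR-497a-5p, whereas miR-503-5p carries AGCAGCG. miR-351-5p has CCCUGAG, the seed of miR-125a-5p and miR-125b-5p. Among the cluster's 13 arms a seed was shared only by miR-450b-3p and miR-450a-1-3p (UUGGGAA). In GENCODE M21 the hairpins lie on the minus strand of chromosome X (GRCm38) in the order miR-322, miR-503, miR-351, miR-542, miR-450a-2, miR-450a-1 and miR-450b, and span 6353 nt (chrX:53047997-53054349). The first 3 hairpins begin within 996 nt of each other, and miR-542 begins 4862 nt after miR-322. The long non-coding RNA gene Gm28730 (1966 nt, same strand) is annotated between miR-351 and miR-542.

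The 5p arms of the 2 hairpins at the 5′ end of the cluster, miR-322 and miR-503, stood higher in the G0 libraries of both experiments than in any other library, and 1 of them, miR-503-5p, passed the test. miR-322-5p, the most abundant arm of the cluster, stood at 12009 CPM at serum 0 h and at 3227, 8448, 5514 and 3946 CPM after 12, 16, 20 and 24 h. On contact days 0, 3 and 5 its level was 2715, 13756 and 28975 CPM. The 3 G0 libraries were all above the other 5, of which the highest was the S phase library at 16 h. In RNA from whole cultures, fewer cells with a miRNA and less of it per cell cannot be told apart.

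miR-503-5p stood at 3457 CPM at serum 0 h, at 208, 804, 537 and 368 CPM after 12, 16, 20 and 24 h, and at 318, 3185 and 7042 CPM on contact days 0, 3 and 5. Here too the G0 libraries lay above all others, with a wider gap: the lowest G0 level was 3185 CPM and the highest other level 804 CPM. Among 307 miRNAs, edgeR's quasi-likelihood test (2-sided, Benjamini-Hochberg adjusted p under 0.05) called 3, or 0.977%, of which 2 were higher in G0 (0.651%) and 1 lower (0.326%). Of the 11 cluster arms tested, 1 was called: miR-503-5p was 3.37 log2 units higher in G0 (SE 0.64, edgeR adjusted p = 0.00626). That call was lost without serum 0 h, the library with many short inserts (4.03, edgeR adjusted p = 0.147), and without contact day 0 (2.84, edgeR adjusted p = 0.0853). The part of the short inserts in the difference was not tested.

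miR-322-5p was 2.02 log2 units higher (SE 0.58, edgeR adjusted p = 0.0813), which missed the threshold. It passed without serum 16 h (2.29, edgeR adjusted p = 0.0235) and without contact day 3 (2.07, edgeR adjusted p = 0.0439), with no filter on low counts (edgeR adjusted p = 0.0450) and with DESeq2 (adjusted p = 0.0129). The other settings left it uncalled, with 1.18 log2 units without contact day 0 (edgeR adjusted p = 0.568), 1.66 without contact day 5 and 3.00 without serum 0 h. Of the 11 arms, 8 had positive log2 differences, beside 136 of 307 (44.3%) of all miRNAs tested. The median over all 11 arms was 1.12, beside -0.19 over all miRNAs tested. That median of all miRNAs moved to -0.13 with library totals in place of TMM factors and to -0.38 with DESeq2's size factors. All 3 G0 libraries lay above the other 5 for 2 arms (miR-322-5p and miR-503-5p) and for 4.89% of all miRNAs, and lay below them for 0 arms and for 3.58% of all.

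**Figure D1:**
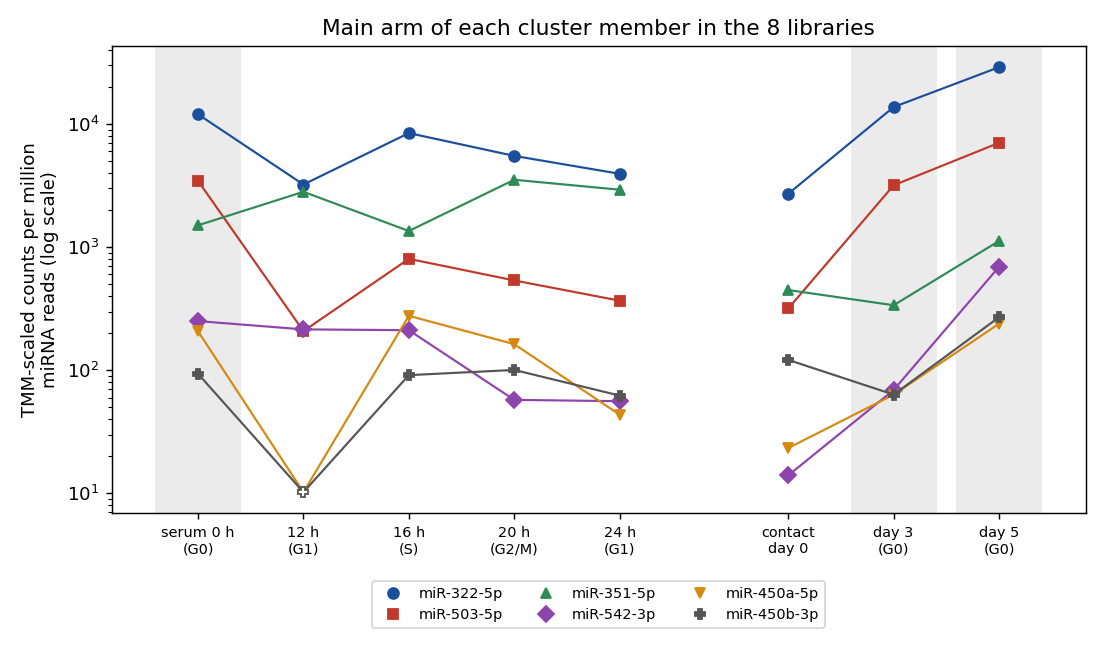
TMM-scaled CPM (log axis) of the more abundant arm of each of the 6 members in the 8 libraries; lines join the libraries of 1 experiment, shading marks those labelled G0, and open symbols mark 0 reads drawn at the level of 3 reads. miR-322-5p and miR-503-5p lie above their other levels in all 3 shaded libraries, with miR-503-5p at 3457, 3185 and 7042 CPM there and at most 804 CPM elsewhere, and miR-351-5p does not.

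miR-351-5p, from the third hairpin, did not share that pattern. Its level was 1506 CPM at serum 0 h, 2818, 1353, 3529 and 2930 CPM after 12, 16, 20 and 24 h, and 449, 338 and 1124 CPM on contact days 0, 3 and 5. The serum 0 h library lay below 3 of the 4 released libraries, and contact day 3 was the lowest of all 8. Its G0 difference of -0.12 log2 units (SE 0.71, edgeR adjusted p = 0.941) was not called and changed sign with single libraries left out. miR-322-5p and miR-503-5p come from hairpins that end 630 nt or more upstream of this one.

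The distal hairpins gave few reads, and none of their arms was called. miR-542-3p stood at 251 CPM at serum 0 h, 215, 212, 57.5 and 56.1 CPM at 12 to 24 h, and 14.02, 69.2 and 693 CPM on contact days 0, 3 and 5 (3, 24 and 177 reads on those days). It was 2.54 log2 units higher in G0 (SE 1.46, edgeR adjusted p = 0.599), a value that became 0.87 without contact day 0, 1.41 without contact day 5 and 4.70 without serum 0 h. The highest level was that of contact day 5 and the lowest that of contact day 0, while serum 12 h and 16 h lay among the G0 levels.

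miR-450a-5p cannot be assigned to 1 of its 2 hairpins, which give the same sequence. It stood at 207 CPM at serum 0 h, 0, 277, 163 and 43.6 CPM at 12 to 24 h and 23.4, 63.5 and 239 CPM on contact days 0, 3 and 5. Its highest level was in S phase and not in a G0 library (1.60 log2 units, SE 1.58, edgeR adjusted p = 0.719). At serum 12 h its 0 reads allow a level of up to 10.2 CPM, by counting error alone, and at 16 h it had 267 reads.

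miR-450b-3p stood at 93.7 CPM at serum 0 h, 0, 91.3, 101 and 62.3 CPM at 12 to 24 h and 121, 63.5 and 270 CPM on contact days 0, 3 and 5, with the groups overlapping (0.51 log2 units, SE 1.39, edgeR adjusted p = 0.896). Only reads at its main start were counted, which held 68.1% of its reads matching the hairpin perfectly. By library that share ran from 60.5% on contact day 0 to 81.25% at serum 20 h. The other 5 tested arms (miR-322-3p, miR-503-3p, miR-351-3p, miR-542-5p and miR-450b-5p) ranged from 0 to 425 CPM, with log2 differences from -1.60 to 2.83 and edgeR adjusted p from 0.662 to 0.934. In all 11 arms the G0 effect did not pass a test of its difference between the experiments (edgeR interaction, smallest adjusted p = 0.798). Over the 307 miRNAs that test called 0, with 16 at an unadjusted p under 0.05.

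**Figure D2:**
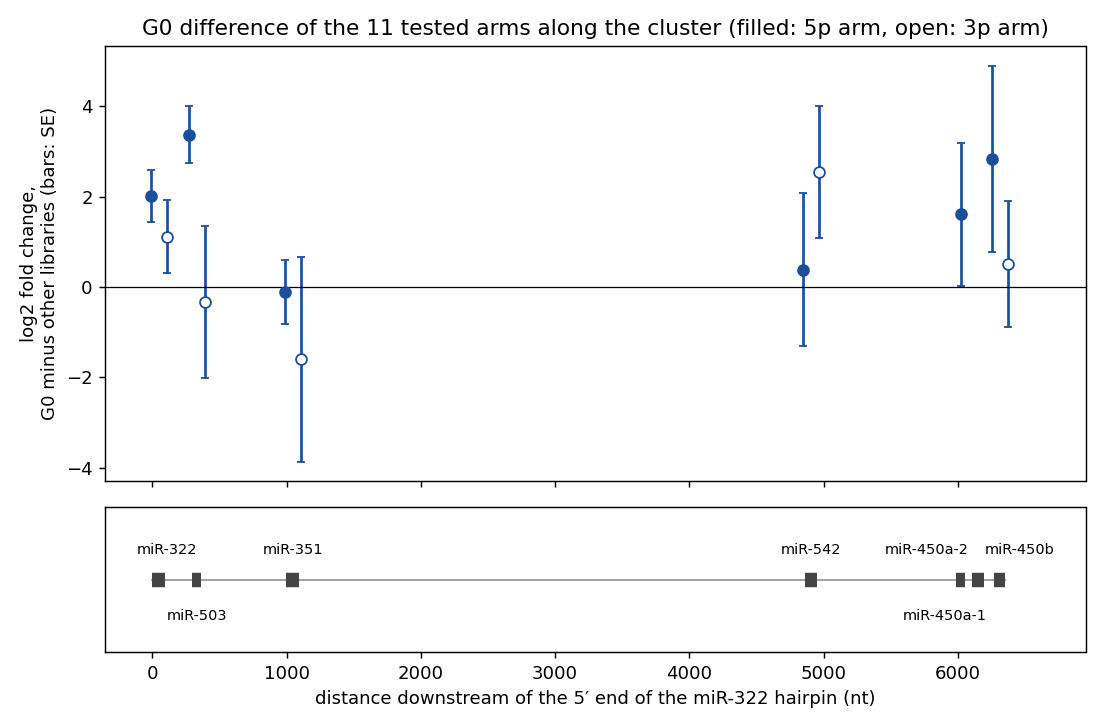
Log2 difference between the 3 G0 and 5 other libraries (bars, SE) for the 11 tested arms, placed along the cluster by distance from the 5′ end of the miR-322 hairpin in nt, with the 7 hairpins drawn to scale below; each 5p arm (filled) is set slightly left and each 3p arm (open) slightly right of its hairpin, and miR-450a-5p between its 2 hairpins. The values are 2.02 and 3.37 for the first 2 5p arms and -0.12 for the third, and the SE runs from 0.58 for miR-322-5p to 2.26 for miR-351-3p, with 1.39 to 2.06 at the hairpins from miR-542 on.

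Libraries were then compared by twos, with no test, since each condition had 1 library. A ratio was counted when it was at least 2-fold, its 95% exact conditional binomial interval excluded 1 and 1 of the libraries held at least 100 reads of the arm. The cluster gave 46 such comparisons in 10 pairs of libraries, with 24 higher, 3 lower and 19 not counted in the first-named library, beside 21.7% higher and 15.1% lower among 1572 comparisons of all miRNAs. Those higher numbered 21 with library totals and 21 with DESeq2's size factors, and with each of these more were lower than with TMM factors. The pairs share libraries and are not independent. The interval covers counting error only, and reads without molecular identifiers are not independent molecules.

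In the contact experiment, days 3 and 5 exceeded day 0 by 10.0-fold (7.84 to 13.001) and 22.2-fold (17.4 to 28.7) for miR-503-5p. For miR-322-5p the ratios were 5.07 (4.65 to 5.53) and 10.7 (9.81 to 11.6). On day 3, 3 of 4 arms were higher than on day 0 (24.3% of 136 miRNAs), the exception being miR-351-5p at a ratio of 0.752 (0.570 to 0.996). On day 5, 4 of 4 were higher than on day 0 (40.4% of 141), among them miR-542-3p at 49.5-fold (16.6 to 242) and miR-351-5p at 2.51-fold (1.98 to 3.19), the latter not counted with DESeq2's size factors.

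Between days 3 and 5, 4 of 5 arms were higher on day 5 (25.9% of 147 miRNAs). miR-542-3p led with 10.0-fold (6.52 to 16.0), followed by miR-351-5p with 3.33-fold (2.68 to 4.17). miR-503-5p at 2.21-fold and miR-322-5p at 2.11-fold were no longer counted with library totals or with DESeq2's size factors. For miR-322-5p and miR-503-5p the ratio was larger between days 0 and 3 than between days 3 and 5, and for miR-351-5p it was smaller. For miR-542-3p the step from day 0 to day 3 was 4.94-fold with an interval of 1.4999 to 25.6, which includes that of the later step.

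In the serum experiment, miR-503-5p at 0 h exceeded all 4 released libraries. The ratio of 0 h to 12 h was 16.6 (12.8 to 21.9), that to 16 h 4.30 (3.91 to 4.72), that to 20 h 6.44 (5.29 to 7.89) and that to 24 h 9.40 (7.23 to 12.4). miR-322-5p was higher at 0 h by 3.72-fold, 2.18-fold and 3.04-fold over 12, 20 and 24 h, and its 1.42-fold ratio over 16 h (1.37 to 1.48) was not counted. Arms higher at 0 h numbered 2 of 4 against 12 h (30.4% of 161 miRNAs), 2 of 6 against 16 h (7.25% of 193), 3 of 4 against 20 h (16.3% of 147) and 2 of 4 against 24 h (21.8% of 142). The 1 arm lower at 0 h was miR-351-5p against 20 h, at a ratio of 0.427 (0.379 to 0.480), where 19% of miRNAs were lower. With library totals and with DESeq2's size factors it was counted as lower against 12 h too (ratio 0.534, where 22.4% of miRNAs were lower), and with DESeq2's size factors against 24 h (ratio 0.514).

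Among the released libraries the counts of arms lay near those of all miRNAs. At 16 h, 3 of 6 arms were higher than at 12 h (33.8% of 195 miRNAs) and 1 was lower (15.4%). miR-503-5p was 3.87-fold higher (2.98 to 5.10) and miR-322-5p 2.62-fold higher (2.45 to 2.80), the latter not counted with library totals. miR-351-5p was lower at a ratio of 0.480 (0.440 to 0.525). With library totals and with DESeq2's size factors, miR-322-3p was counted as lower too (ratio 0.555 with TMM factors). From 16 to 20 h, miR-351-5p was 2.61-fold higher (2.38 to 2.86; 1 of 6 arms, 13.1% of 191 miRNAs) and miR-542-3p lower at 0.272 (0.138 to 0.485; 1 of 6, 12% of miRNAs). Between 20 and 24 h, 0 of 3 arms were counted in either direction, where 3.36% of 119 miRNAs were higher and 5.04% lower.

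A ratio of 2 members within 1 library needs no scaling between libraries, and it shows most directly whether members of 1 transcript moved together. For every 100 reads of miR-322-5p there were 28.8 reads of miR-503-5p at serum 0 h and 23.2 and 24.3 on contact days 3 and 5. In the other libraries there were 6.45, 9.52, 9.74 and 9.32 at serum 12, 16, 20 and 24 h and 11.7 on contact day 0. All 3 G0 libraries lay above the other 5, by a mean of 1.46 log2 units (1.73 within the serum and 1.01 within the contact experiment). An exact permutation test of the G0 label (2-sided, 56 assignments) gave p = 0.0179, the smallest that so many assignments can give, and 0.0893 after Benjamini-Hochberg adjustment over 5 such tests. The ratio therefore did not pass after adjustment. These assignments cross the 2 experiments, and with labels kept within each experiment only 15 remain, which gave an exact permutation p = 0.0667, the smallest they can give.

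The ratio of miR-351-5p to miR-322-5p went the other way. Its denominator, miR-322-5p, was higher in all 3 G0 libraries, so a miRNA with an unchanged level would fall in this ratio too. By level, miR-351-5p itself had a G0 difference of -0.12 log2 units, with the groups overlapping. The share of all miRNAs whose ratio separates likewise was not counted. Per 100 reads of miR-322-5p there were 12.5 reads of miR-351-5p at serum 0 h and 2.45 and 3.88 on contact days 3 and 5. The other libraries had 87.3, 16.0, 64.0 and 74.2 at serum 12, 16, 20 and 24 h and 16.5 on contact day 0. The G0 libraries lay below all others, with a mean difference of -3.04 log2 units (-2.02 within the serum and -2.42 within the contact experiment; 2-sided exact permutation p = 0.0357, adjusted p = 0.0893). The nearest neighbours across the groups were serum 0 h, with a 95% interval of 11.3 to 13.8, and serum 16 h, with 15.1 to 17.0, and the interval of contact day 0 (13.2 to 20.5) overlapped that of serum 0 h. The exact permutation p was 0.0571 without serum 16 h or contact day 0, and 0.0667, again the smallest possible, with labels kept within each experiment.

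**Figure D3:**
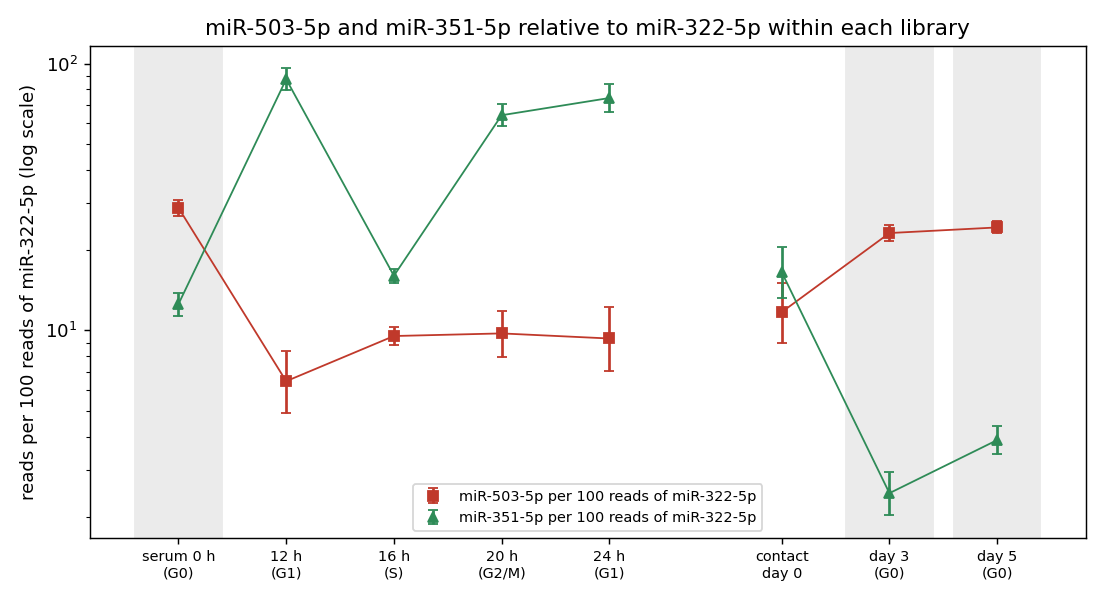
Reads of miR-503-5p (squares) and miR-351-5p (triangles) per 100 reads of miR-322-5p in each library (log axis; bars, 95% exact intervals for counting error; shading, libraries labelled G0). miR-503-5p lies at 23.2 to 28.8 in the shaded libraries and at 6.45 to 11.7 elsewhere, and miR-351-5p at 2.45 to 12.5 in the shaded libraries and at 16.0 to 87.3 elsewhere.

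The 2 lines cross, so that the order of the members by reads differed with the condition. With both arms summed and all libraries pooled, reads fell along the transcript, from 27823 for miR-322 through 5289 for miR-503, 4449 for miR-351, 705 for miR-542 and 491 for miR-450a to 314 for miR-450b. The same order was found in each of the 3 G0 libraries (miR-450a and miR-450b tied at 23 reads on contact day 3) and in 0 of the other 5. In those 5, miR-351 had more reads than miR-503. miR-503 made up 19.3%, 18.6% and 18.6% of cluster reads at serum 0 h and on contact days 3 and 5 and 5.09% to 10.2% elsewhere, and miR-351 made up 8.37%, 2.10% and 3.10% there and 12.2% to 41.4% elsewhere. This order was looked at after the values had been seen and was given no test. How well each sequence is captured in a library was not measured, so reads do not give the amount of 1 member relative to another.

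The whole cluster took 2.37% of miRNA reads at serum 0 h, 1.04%, 1.29%, 1.22% and 0.968% at 12, 16, 20 and 24 h, and 0.266%, 1.47% and 2.27% on contact days 0, 3 and 5.

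The 2 arms of a hairpin come from 1 precursor in equal number, so their ratio in reads shows how they fare afterwards and how well each is captured. In miR-322, miR-503, miR-351 and miR-450a the 5p arm gave more reads, and in miR-542 (567 reads of 3p, 138 of 5p) and miR-450b (264 of 3p, 50 of 5p) the 3p arm did. Per 100 reads of miR-322-5p there were 3.54 reads of miR-322-3p at serum 0 h, 7.82, 1.66, 3.74 and 7.11 at 12, 16, 20 and 24 h and 4.13, 2.27 and 0.852 on contact days 0, 3 and 5. The groups overlapped (mean difference of -1.18 log2 units, 2-sided exact permutation p = 0.143, adjusted p = 0.238). In the contact experiment the share of the 3p arm was lowest where the 5p arm was highest: miR-322-3p ran at 112, 312 and 247 CPM on days 0, 3 and 5. These values count only reads at its main start, which held 41.5% (serum 16 h) to 87.1% (serum 24 h) of its reads matching the hairpin perfectly. At all starts, 261, 109, 277, 46 and 31 inserts of 18 to 26 nt matched the hairpin perfectly at serum 0, 12, 16, 20 and 24 h. On contact days 0, 3 and 5 there were 39, 154 and 89. A perfect match leaves out reads with untemplated bases, which the count by the first 20 bases keeps. At serum 24 h that count held 45 reads at the main start alone. The order of the serum libraries in this ratio thus depends on the matching and the starts counted, and the part of each was not tested.

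miR-503 showed a wider range. Per 100 reads of miR-503-5p there were 0.774 reads of miR-503-3p at serum 0 h (8 reads), 68.9, 7.23, 19.6 and 20.3 at 12, 16, 20 and 24 h, and 26.5, 5.89 and 3.11 on contact days 0, 3 and 5. The 3 G0 libraries had the lowest 3 ratios, and the 16 h library followed. In CPM, miR-503-3p stood at 26.8 at serum 0 h, at 143, 58.1, 105 and 74.8 at 12 to 24 h, and at 84.1, 188 and 219 on contact days 0, 3 and 5, so in the serum experiment its lowest level was at 0 h, where that of its 5p arm was highest. Over both experiments its G0 difference was -0.33 log2 units (SE 1.68, edgeR adjusted p = 0.934). Counts were too low in at least 1 library for the test of the ratio that was planned for arms with 10 reads everywhere.

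For miR-351, 0.444 to 5.96 reads of the 3p arm per 100 of the 5p arm were found in the serum libraries and 8.01 to 12.8 in the contact libraries. Per 100 reads of miR-542-3p there were 500 reads of miR-542-5p on contact day 0 (15 against 3 reads), 125 on day 3 and 22.03 on day 5. On those days miR-542-5p itself stood at 70.1, 86.5 and 153 CPM.

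**Figure D4:**
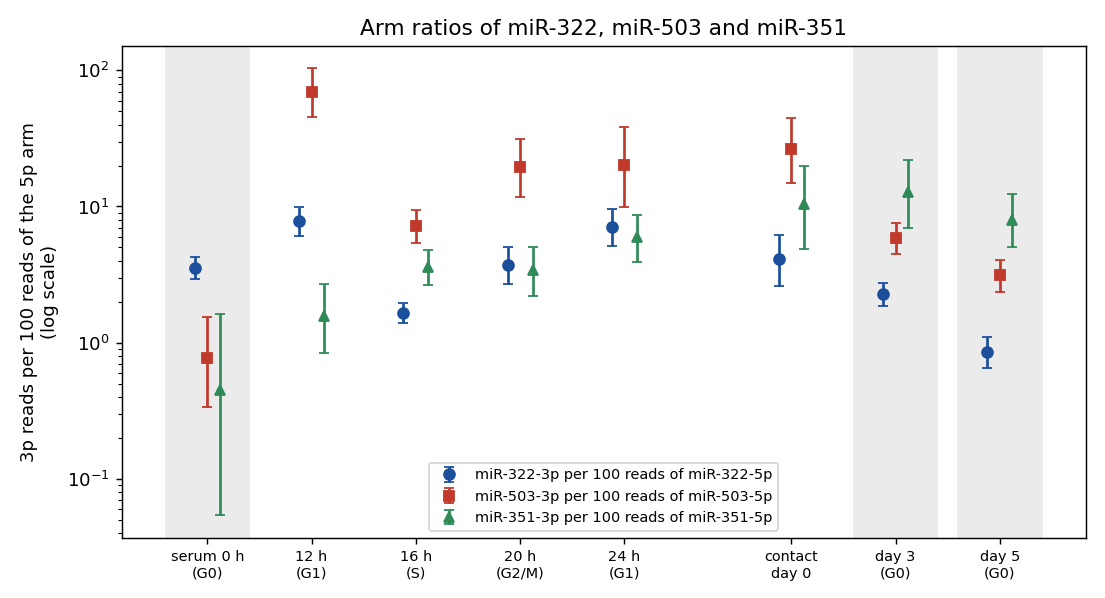
Reads of the 3p arm per 100 reads of the 5p arm for miR-322 (circles), miR-503 (squares) and miR-351 (triangles) in each library (log axis; bars, 95% exact intervals for counting error; shading, libraries labelled G0). The ratio of miR-503 runs from 0.774 to 68.9 and is at its 3 lowest in the shaded libraries, though the intervals of contact day 3 and serum 16 h overlap. That of miR-322 stays between 0.852 and 7.82 with the groups overlapping. Only reads at the main start of each arm were counted.

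Small counts in some serum libraries rested on few distinct inserts. At serum 12 h the 61 reads of miR-503-5p were 2 distinct inserts, the 42 of miR-503-3p and the 63 of miR-542-3p were 1 each, and 6 of the 13 arms had 0 reads. Over 65 miRNAs with at least 100 reads in every library, the median number of reads per distinct insert was 93.1, 118, 105, 57 and 59.6 at serum 0, 12, 16, 20 and 24 h and 38.2, 58.6 and 54.8 on contact days 0, 3 and 5. The first 3 serum libraries thus lay above the rest, and those at 20 and 24 h lay near contact days 3 and 5. The intervals on ratios count reads and do not count molecules; the part of this in the ratios was not tested.

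The 5′ end decides the seed, and it varied little in these 3 5p arms. Of reads matching the hairpin within 8 nt of the RefSeq start, 95.6% of miR-322-5p, 97.6% of miR-503-5p and 99.4% of miR-351-5p began at that start. In miR-322-3p, 54.8% (95% exact interval 51.6 to 57.9) began 2 nt upstream of it and 35.7% at it. That shift turns the seed from AACAUGA into AAAACAU, as in the most read form, whose capitals mark the seed counted from its own first base.
miR-322-3p, most read form: cAAAACAUgaagcgcugcaaca
miR-503-3p, most read form: gGAGUAUUguuuccacugccugg

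In miR-503-3p, 84.9% (80.1 to 89.0) began 1 nt upstream of the RefSeq start, with the seed GAGUAUU in place of AGUAUUG. By library, the share of miR-322-3p at the upstream start ran from 41.5% at serum 16 h to 87.1% at serum 24 h (31 reads), with 49.4% at serum 0 h, 46.2% on contact day 0 and 64.9% and 61.8% on contact days 3 and 5. The G0 libraries lay inside the range of the others. Of the 381 arms counted, 33 had a main start that differed from RefSeq's.

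At the 3′ end, bases absent from the hairpin were less common on miR-322-5p and miR-503-5p than on miR-351-5p. Forms under 20 nt could not be counted, and 20.5% of miR-322-5p reads in all libraries were 20 nt long. The mean length of miR-322-5p was 21.5 nt at serum 0 h, and 21.3 to 21.7 nt over all libraries, with no difference past the test between G0 and the rest (0.038 nt, 2-sided exact permutation p = 0.679, adjusted p = 0.679). A last base absent from the hairpin (untemplated) was found in 6.58%, 3.73% and 5.72% of its reads at serum 0 h and on contact days 3 and 5, and in 4.27% to 13.3% in the other 5. This difference of -2.62 percentage points did not pass (2-sided exact permutation p = 0.268, adjusted p = 0.335). Of the 65 miRNAs with at least 100 reads in every library, 7.69% had G0 libraries apart from the others in mean length and 16.9% in the untemplated share, and miR-322-5p was in neither group.

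Pooled over libraries, 35.9% of miR-351-5p reads ended in an untemplated base, against 6.97% for miR-322-5p and 6.41% for miR-503-5p, and a median of 13.9% over 134 miRNAs with at least 1000 reads, among which miR-351-5p ranked 19th. An untemplated U ended 23.5% of its reads (median 4.12%, rank 10), against 2.13% for miR-322-5p and 0.619% for miR-503-5p. By library the share was 35.3% at serum 0 h, 30.9%, 19.4%, 15.6% and 17.4% at 12, 16, 20 and 24 h, and 34.4%, 35.04% and 24.0% on contact days 0, 3 and 5. Each of these lay above the median of the 65 abundant miRNAs in its library (1.86% to 4.89%). The G0 libraries did not separate from the rest, since contact day 0 and serum 12 h lay inside their range.

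Lengths of miR-351-5p were spread over 21 to 25 nt, with 21.9% of reads at 22 nt, its most common length, and 12.1% longer than 26 nt. miR-322-5p had 57.1% at 22 nt and miR-503-5p 72.4% at 23 nt. The untailed and tailed forms of miR-351-5p are shown for comparison, with the bases after the 20th in capitals in the tailed forms and the seed in capitals in the first.
miR-351-5p, most read form: uCCCUGAGgagcccuuugagcc
most read tailed form at serum 0 h: ucccugaggagcccuuugagCCUGU
most read tailed form at serum 24 h: ucccugaggagcccuuugagCCUGUU
second tailed form on contact day 0 (5 reads): ucccugaggagcccuuugagCCUGA
most read tailed form at serum 12 h: ucccugaggagcccuuugagCCAUAAACU

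The form ending in CCUGU, the whole RefSeq sequence of 24 nt with 1 U added, was the most read tailed form in 6 of 8 libraries, at 19.3% of miR-351-5p reads at serum 0 h, 5.37% at 16 h, 8.15% at 20 h and 19.8%, 14.5% and 14.3% on contact days 0, 3 and 5. At 24 h it was second (5.11%), and at 12 h it was not among the first 3. Among the first 3 tailed forms at 12 h, the one shown (29 nt, 59 reads) and a form of 30 nt (36 reads) differ from the hairpin and end in U. The remaining one, second by reads, was 22 nt long and ended in AA (48 reads). The long forms held only part of the U-ended share at 12 h, and its other forms are not shown.

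**Figure D5:**
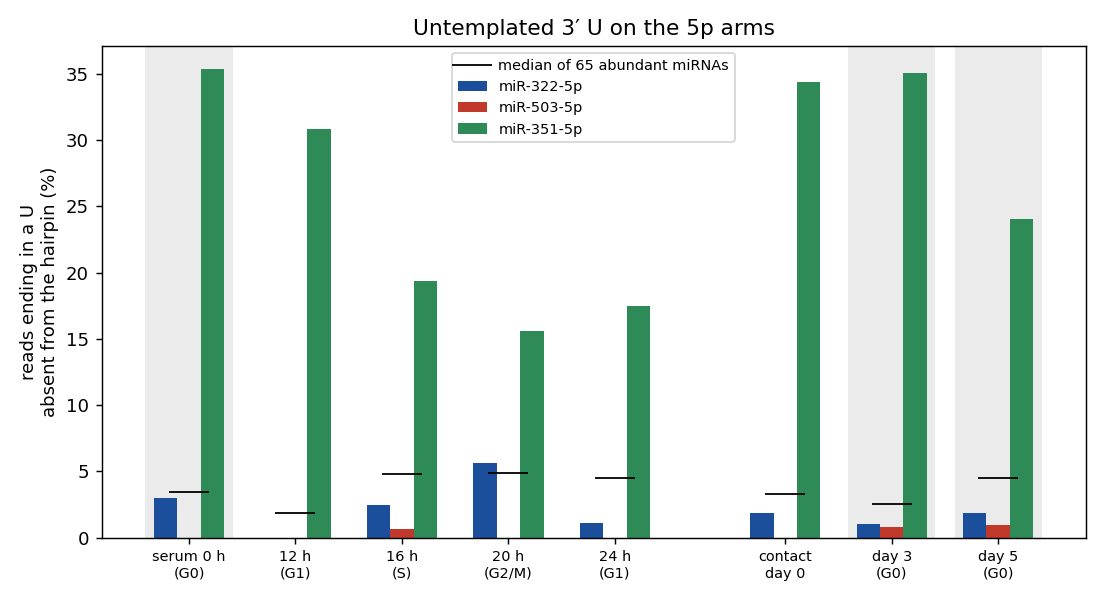
Share of reads (%) ending in a U absent from the hairpin for the 5p arms of miR-322, miR-503 and miR-351 in each library, as bars from 0, with the median of 65 abundant miRNAs as a line (shading, libraries labelled G0). miR-351-5p lies at 15.6% to 35.3% in every library, above medians of 1.86% to 4.89%, and the other 2 arms do not exceed 5.65%.

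The pattern of each miRNA over the 8 libraries was compared with that of miR-322-5p by Pearson's r of log2(TMM-scaled CPM + 1), as a description with 8 points that share scaling and experiment. miR-503-5p was the most alike of 306 miRNAs (r = 0.97), and ranked 3 with library totals, 4 with the mean of each experiment subtracted and 5 by Spearman's rho. It was followed by 5 miRNAs from outside the cluster, miR-29c-3p (0.96), miR-34b-5p (0.96), miR-21a-5p (0.95), miR-369-3p (0.94) and miR-18a-5p (0.94). The other arms of the cluster lay lower, with miR-450b-5p at 0.78 (rank 21), miR-542-3p at 0.70 (29), miR-450a-5p at 0.65 (38), miR-542-5p at 0.51 (68), miR-450b-3p at 0.50 (76), miR-322-3p at 0.43 (90) and miR-503-3p at 0.20 (148). miR-351-3p (-0.20, rank 222) and miR-351-5p (-0.27, rank 230) were negative, below the median of 0.16 over 296 miRNAs that are not members. The sign of miR-351-5p depended on scaling: r was 0.02 with library totals and 0.05 with the mean of each experiment subtracted.

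miRNAs with the same seeds but other genes were followed beside the cluster. Of the 5 relatives of miR-322-5p, 0 were called by edgeR (0 at an unadjusted p under 0.05; background 0.977% of 307), 4 had positive differences and the median was 0.15 log2 units. miR-15a-5p (1.27, SE 0.68) and miR-497a-5p (0.99, SE 0.87) had the largest values, miR-195a-5p (0.15) and miR-16-5p (0.15), the most abundant at 10047 to 16617 CPM, were near 0, and miR-15b-5p was at -0.63. Both relatives of miR-351-5p had negative values (miR-125a-5p at -0.73, miR-125b-5p at -1.07, 0 called, 1 at an unadjusted p under 0.05). miR-221-3p (-0.21) and miR-222-3p (-0.72), from another X-linked cluster, were not called, and the other 5 X-linked arms listed were not counted here.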

How the data were processed

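Small RNAs were sequenced in 8 NIH-3T3 libraries. Each deposited file lists distinct 36-nt reads with the count of each, as the authors deposited them; library preparation is cited in the labels to an earlier publication, and for read calling, filters and alignment the sources name nothing. The adapter was derived from the reads and cut where 6 or more of its bases matched (1 mismatch per 8 bases tolerated). Inserts of 16 to 30 nt were kept, but those under 20 nt cannot match a prefix of 20 bases and were not counted. The presumed marker oligonucleotides (18 and 30 nt) were left out only when read starts were located. Arms came from RefSeq (GRCm38.p6), moved to the main read start within 8 nt. Those outside the cluster needed at least 10 reads with at least 50% at 1 start, and cluster arms were kept without these requirements. Hairpins for 3′ ends came from RefSeq, or from GENCODE M21 where RefSeq had none, as for miR-351.

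Counts were tested with edgeR 4.0.16 (TMM, robust quasi-likelihood, term for experiment; R 4.3.3) after a check on simulated data, with DESeq2 1.42.0 as an alternative. Single values were tested by exact permutation (Python 3.11.15, scipy 1.17.1), with 0.5 added to each count before log ratios. Intervals are exact binomial at 95%, and a count of 0 is read as up to 3 reads. Named beside the members were all arms of the seed relatives and X-linked lists and the 5 miRNAs from outside the cluster most like miR-322-5p. Alternatives covered scaling, filter, tool, matching, insert length and each library left out. The members and lists were chosen with earlier results of these data known.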

Additional observations from a re-analysis of the deposited data

Results flagged for a closer look

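The 3p arm of miR-503 lay on opposite sides in the 2 experiments. At serum 0 h it stood at 26.8 CPM (8 reads, all the same insert), below the 4 released libraries (58.1 to 143 CPM), whereas on contact days 3 and 5 it stood at 188 and 219 CPM, above day 0 (84.1 CPM). Every G0 library thus lay on one side of its experiment's other libraries and the side differed. The test of that difference, edgeR's interaction term, did not pass (-3.09 log2 units, serum minus contact, SE 2.56, adjusted p = 0.798).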

How the results depend on the processing

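No paired analysis was possible because each condition had 1 library and the labels carry no replicate numbers. The 3 miRNAs called between G0 and other libraries became 11 with no filter on low counts (47 at an unadjusted p under 0.05) and 15 with DESeq2, and 0 to 8 with single libraries left out (0 without serum 0 h, 8 without serum 16 h, 6 without contact day 3). Not called in any setting, miR-503-3p turned positive with no experiment term (0.63) and without serum 0 h (1.33), miR-351-5p with whole inserts matched to a hairpin (0.041) and without serum 0 h (0.71), serum 20 h (0.03) or contact day 3 (0.02), and miR-351-3p without serum 0 h (0.53). With single libraries left out their lowest values were -1.82, -0.82 and -3.78. The 3p to 5p difference of miR-322 ran from -1.63 to -0.60 with single libraries left out (exact permutation p = 0.0286 without serum 16 h), the miR-351-5p to miR-322-5p difference from -3.71 to -2.54, and the length difference of miR-322-5p from -0.016 to 0.086 nt. The 27 counted ratios between libraries became 41 with a minimum of 50 reads. Members among the 20 miRNAs most like miR-322-5p numbered 1, 3 with library totals, and 1 to 2 with single libraries left out. After seeing the data, 3 alternatives were added. Neither the mean of each experiment subtracted nor all starts of miR-322-3p counted, from perfect matches only, changed a call or count. With labels kept within each experiment, the differences are the same by construction (1.46 for miR-503-5p to miR-322-5p, -3.04 for miR-351-5p to miR-322-5p). Only the p could change, and both exact permutation p rose to 0.0667, the smallest that 15 assignments allow. Taken within the serum and the contact experiment, the differences were 1.73 and 1.01 for miR-503-5p and -2.02 and -2.42 for miR-351-5p. The pooled -3.04 was larger in size than either of the latter. The G0 group held mostly contact libraries and the other group mostly serum libraries, so a pooled value also carries the difference between the experiments. The causes of these differences were not tested. Depth limits the distal arms, with 3 to 204 reads of miR-542-3p per library.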
